A study of Vigna radiata with 9 samples.

Results

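Mung bean (Vigna radiata) leaves sprayed with uniconazole and leaves sprayed with water, both from plants kept in the cold, were compared across all genes. The comparison used 6 of the 9 libraries of the study, 3 of LT+S and 3 of LT, chosen by their column names and not by any measured value. Both groups were the cultivar 'Lvfeng No.2', sprayed at the onset of flowering and moved 36 h later to a phytotron at 15 °C for 4 days. LT plants received water and LT+S plants uniconazole at 50 mg/L. Each library came from a separate pot. CK plants, sprayed with water and left in the natural environment, supplied the other 3 libraries and are given beside the cold groups as a description. CK and LT therefore differ in where they grew and not in temperature alone. Plants that had uniconazole without cold were not analysed here, so what the spray does at a normal temperature cannot be told from these libraries. The compound carries a code in the labels that runs on by 1 from library to library of LT+S, from S3305 to S3307, whereas a single code stands in the methods. The 3 libraries were taken as replicates of 1 treatment.

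Uniconazole is a triazole growth retardant. It blocks ent-kaurene oxidase, a cytochrome P450 early in the synthesis of gibberellin, the hormone of stem elongation and of much of flowering. It also blocks abscisic acid 8'-hydroxylase, the cytochrome P450 that inactivates abscisic acid, the hormone of closed stomata and of drought and cold tolerance. Both are blocks of enzymes and not of genes, so that RNA levels show what the leaf transcribes and not how active these enzymes were. Chilling of a warm-season legume lowers photosynthesis, and much of the RNA of a leaf is made for the photosynthetic apparatus.

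The LT libraries held 20412987 to 21104500 counts each and those of LT+S 20750500 to 21472254, and 19304 of 26966 genes had enough counts to be tested. Levels are given as CPM, read counts scaled to the size of each library with TMM normalization. The libraries were of leaf: the 3 rubisco small chain genes summed to between 1075 and 3276 CPM over the cold libraries, whereas the 4 leghemoglobin genes of root nodules summed to at most 1.03 CPM. The LT libraries lay far apart from each other. The mean Euclidean distance of log2 CPM was 88.9 within LT and 63.3 within LT+S. Between LT and LT+S it was 84.4, less than within LT. On the first principal component of the 6 cold libraries (41.2% of the variance) LT 3 scored -70.9, and the others scored from -3.55 to 33.0. On the second (24.6%) LT 1 scored 48.9 and LT+S 1 -36.8. On the third (15.3%) LT 2 scored 41.2. LT 3 held the least antenna protein RNA and the least RNA of vascular genes, markers of veins. The 79 vascular genes summed to 690, 906 and 446 CPM in LT, against 611 to 689 CPM in LT+S. In whole leaves fewer cells of a type and less RNA per cell cannot be told apart.

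Few genes differed beyond the spread of the pots. In the quasi-likelihood test of edgeR 3 genes had an adjusted p below 0.05, which is 0.0155% of the genes tested, 2 of them higher (0.0104%) and 1 lower (0.00518%) in LT+S. "Rose" and "fell" are used below for these 3 genes only. In a fit of the 6 cold libraries alone the test called 0 genes, with 872 higher and 750 lower by an unadjusted p below 0.05, and the adjusted p of the 3 genes was 0.0562 to 0.0652. A looser rule, called the 2-fold threshold here, took genes that differed more than 2-fold and had an unadjusted p below 0.05. It took 475 genes (2.46%), of which 283 were higher (1.47%) and 192 lower (0.995%), and it does not correct for the number of genes tested: an unadjusted p below 0.05 alone was found for 7.07% of genes. Of the 283 genes, 252 had every LT+S library above every LT library, as did 7.21% of all genes. Of the 192 genes, 143 had every LT+S library below, as did 6.91% of all genes. The 2-fold threshold was applied to the same libraries, so most genes it took lack overlap by selection. These shares are therefore no further evidence of a difference. The sizes were mostly modest: 51 of the higher and 51 of the lower genes differed more than 4-fold. In 53 of the higher and 24 of the lower genes the mean was under 1 CPM in both groups. Over all genes the median log2 fold change was -0.01, and 9435 of the 19304 were positive. In each direction a further group lay close to the line, since 16 genes higher and 13 genes lower had an adjusted p below 0.1 in edgeR, the 3 called included. The count of calls depends on the model, since 123 genes higher (0.637%) and 109 lower (0.565%) passed in DESeq2. Below, log2FC is the log2 fold change of LT+S over LT from edgeR. Counts of list members at the 2-fold threshold are to be read beside the shares of all genes, 1.47% higher and 0.995% lower.

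**Figure D1:**
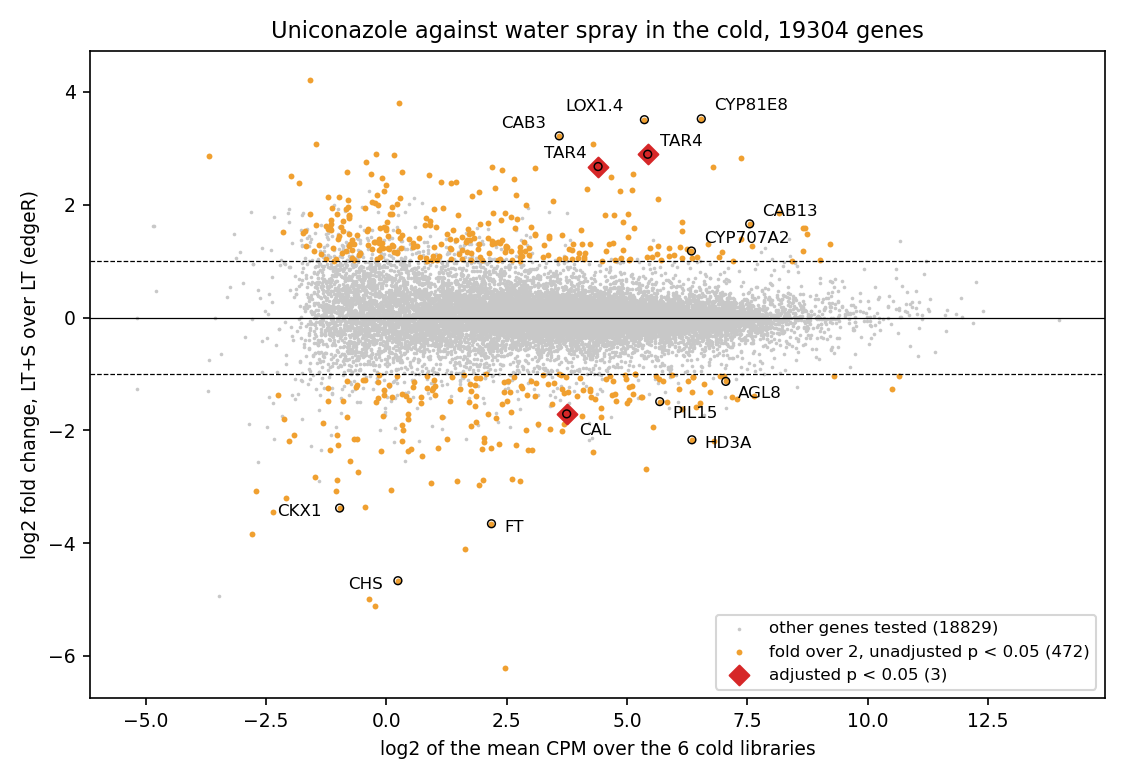
Log2 fold change of LT+S over LT (vertical axis) against the log2 of the mean CPM over the 6 cold libraries (horizontal axis) for each of the 19304 genes tested. The 3 genes called at an adjusted p below 0.05 (red diamonds) lie among the 475 genes at the 2-fold threshold (the other 472 in orange), and circled genes are named in the text.

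The genes that rose are both annotated as tryptophan aminotransferase-related protein 4 (TAR4), of a family whose best known members make the auxin precursor indole-3-pyruvate. LOC106755073, on a sequence not placed on a chromosome, was 9.79, 11.6 and 9.25 CPM in LT and 66.7, 103 and 58.3 CPM in LT+S, a log2FC of 2.90 with a standard error of 0.24 (edgeR adjusted p = 0.00609). In CK it was 45.4, 47.2 and 62.2 CPM, so that LT lay below both other groups, which overlapped. The other copy, LOC106765714 on chromosome 1 from 23687568 to 23691527 (Vradiata_ver6, as are all positions here), was 5.46, 5.37 and 6.23 CPM in LT, 35.4, 47.8 and 26.2 in LT+S and 33.2, 35.3 and 43.1 in CK. It rose by 2.68 on the log2 scale (edgeR adjusted p = 0.00609). As the counting of reads that fit several genes is not stated, the copies may share reads and count as evidence once. Of 10 tested genes of auxin synthesis 9 had a positive log2 fold change (median 0.67), and 3 were higher at the 2-fold threshold, with 2 to 4 over the libraries left out. Beside the TAR4 genes it was YUCCA8 (LOC106771549), a probable indole-3-pyruvate monooxygenase, which turns the product of TAR enzymes into auxin. It was low throughout, at 0.126, 0.547 and 0.122 CPM in LT and 1.03, 0.759 and 0.92 CPM in LT+S (edgeR adjusted p = 0.583).

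Genes that act on auxin later were mixed. Of 96 tested genes of auxin response, 1 was higher and 2 were lower at the 2-fold threshold (median log2 fold change -0.03), or 6 and 1 without LT 3 and 1 and 4 without LT 1. In the main fit this was 3.13% of the list in both directions, close to the 2.46% of all genes. Every LT+S library lay below every LT library for the indole-3-acetic acid amido synthetase GH3.1 (LOC106776303), which stores auxin as conjugates: it was 3.24, 3.51 and 7.78 CPM in LT and 1.84, 1.73 and 1.59 CPM in LT+S (log2FC -1.49, edgeR adjusted p = 0.345). The dioxygenase DAO (LOC106763505), whose rice and Arabidopsis relatives oxidise auxin, went the other way at 6.51, 13.9 and 2.69 CPM in LT and 47.7, 38.8 and 43.6 CPM in LT+S (log2FC 2.5, edgeR adjusted p = 0.37), against 126, 376 and 614 CPM in CK. Auxin response factor 6 (LOC106775725), a transcription factor, was 67.7, 66 and 61.1 CPM in LT and 83.3, 100.4 and 97.7 CPM in LT+S, a smaller difference with little spread (log2FC 0.53, edgeR adjusted p = 0.275). The influx carrier LAX1 (LOC106765013) was 23.9, 23.2 and 23.1 CPM in LT and 13.8, 18.3 and 14.6 CPM in LT+S.

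The gene that fell encodes the MADS-box factor CAULIFLOWER (LOC106758858, chromosome 4 from 18499072 to 18506003), which in Arabidopsis gives young floral meristems their identity. It was 18.5, 23.2 and 19.9 CPM in LT and 6.63, 6.62 and 5.61 CPM in LT+S, a log2FC of -1.71 with a standard error of 0.15 (edgeR adjusted p = 0.00609). With 5.81, 4.94 and 5.24 CPM in CK, the LT+S libraries overlapped those of CK and the LT libraries lay above both. Without LT 1 the edgeR adjusted p of this gene and of both TAR4 genes was 0.0651, and the test called 0 genes, although 590 higher and 658 lower genes had an unadjusted p below 0.05. Without LT+S 2 or LT+S 3 the TAR4 genes passed and 0 genes were called lower.

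Other genes of flowering lay on the same side. Of 39 tested genes of flowering time and floral MADS-box factors, 7 had a positive log2 fold change (median -0.25), and 8 were lower and 0 higher at the 2-fold threshold, beside 0.995% lower over all genes. In DESeq2 6 of the list passed as lower and 0 as higher. Florigens are small mobile proteins that leave the leaf to start flowering at the shoot tip. FLOWERING LOCUS T (FT, LOC106753827, not placed on a chromosome) was 5.34, 11.9 and 7.99 CPM in LT and 0.898, 0.421 and 0.669 CPM in LT+S, a log2FC of -3.66 (edgeR adjusted p = 0.291). HEADING DATE 3A (HD3A, LOC106766377, chromosome 1 from 17360268 to 17365256), named after the rice florigen, was 130.1, 164 and 106 CPM in LT and 19.8, 32.1 and 37 CPM in LT+S (log2FC -2.17, edgeR adjusted p = 0.289). For both, each LT+S library was below each LT library, as in 6.91% of all genes, and neither passed the adjusted threshold. FT was named by a rule that asked for no overlap. CK overlapped LT+S in both genes, at 3.48, 1.31 and 0.0655 CPM for FT and 58.4, 29.7 and 11.9 CPM for HD3A, and its pots were far apart.

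Florigen genes were not alike. Of 7 tested genes annotated as FT, HD3A or HD3B, 3 were lower at the 2-fold threshold and 2 had a positive log2 fold change. HD3A is annotated at 4 genes within 34.2 kb of chromosome 4, from 20473091 to 20507305, which may share reads. The most abundant of them in the cold (LOC106758895) was 13.8, 22.6 and 13.9 CPM in LT and 0.94, 5.02 and 6.86 CPM in LT+S (log2FC -1.97), whereas its neighbour LOC106758876 was 1.77, 3.01 and 3.46 CPM in LT and 0.983, 2.36 and 2.26 CPM in LT+S (log2FC -0.55). HD3B (LOC106774185) was 63.2, 68.9 and 48.9 CPM in LT and 65.8, 66.1 and 78.5 CPM in LT+S, with the groups overlapping.

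Further MADS-box factors were low in LT+S. AGL8, whose Arabidopsis relative FRUITFULL acts with CAULIFLOWER in floral meristems, is annotated at 4 tested genes. The most abundant (LOC106755342, chromosome 2 from 24043194 to 24051500) was 171, 196 and 179 CPM in LT, 91.6, 74.6 and 82.9 CPM in LT+S and 98.5, 74.2 and 63.2 CPM in CK, with a log2FC of -1.13 (edgeR adjusted p = 0.0775). In LOC106766734 the level was 43.5, 54 and 28.6 CPM in LT and 24.9, 24.2 and 24.6 CPM in LT+S, in LOC106779293 it was 2.35, 3.73 and 2.16 CPM and 0.94, 1.31 and 1.21 CPM, and the last of the 4 was at most 1.01 CPM in the cold. MADS17 (LOC106771681) was 11.6, 14.7 and 9.66 CPM in LT and 1.67, 1.39 and 1.76 CPM in LT+S (log2FC -2.90, edgeR adjusted p = 0.283). In contrast SOC1 (LOC106752989), which integrates flowering signals, was 111, 121 and 93.2 CPM in LT and 99.3, 112 and 111 CPM in LT+S (log2FC -0.01), and SVP (LOC106776949), a repressor of flowering, was 19.3, 15.6 and 22.7 and 20.4, 17.8 and 16 CPM. The 1 member at an unadjusted p below 0.05 in the other direction was annotated as JOINTLESS (LOC106775530), at 3.45, 2.64 and 3.46 CPM in LT and 4.62, 4.26 and 5.4 CPM in LT+S.

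The count of 8 lower genes was 7 without LT 3 and 6 without LT 2, and the median ran from -0.44 without LT+S 3 to -0.14 without LT+S 2. The member of these 8 not described above is AG1, a floral organ factor. Of 33 tested genes of the circadian clock, 0 in either direction were at the 2-fold threshold, and 1 in each direction had an unadjusted p below 0.05. PIL15 (LOC106757404), named for a phytochrome-interacting factor of the light response in rice, was 101, 67.4 and 57.9 CPM in LT and 27, 26.4 and 27.3 CPM in LT+S. The log2FC of -1.49 had an edgeR adjusted p = 0.0691. In CK it was 85.5, 71.6 and 66.1 CPM, which overlapped LT and lay above LT+S. COL4 (LOC106771336), a zinc finger protein of the CONSTANS-like family, was 10.002, 8.7 and 10.6 CPM in LT and 3.72, 4.51 and 4.39 CPM in LT+S (log2FC -1.21, edgeR adjusted p = 0.0775), with 1.86, 1.67 and 1.37 CPM in CK.

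**Figure D2:**
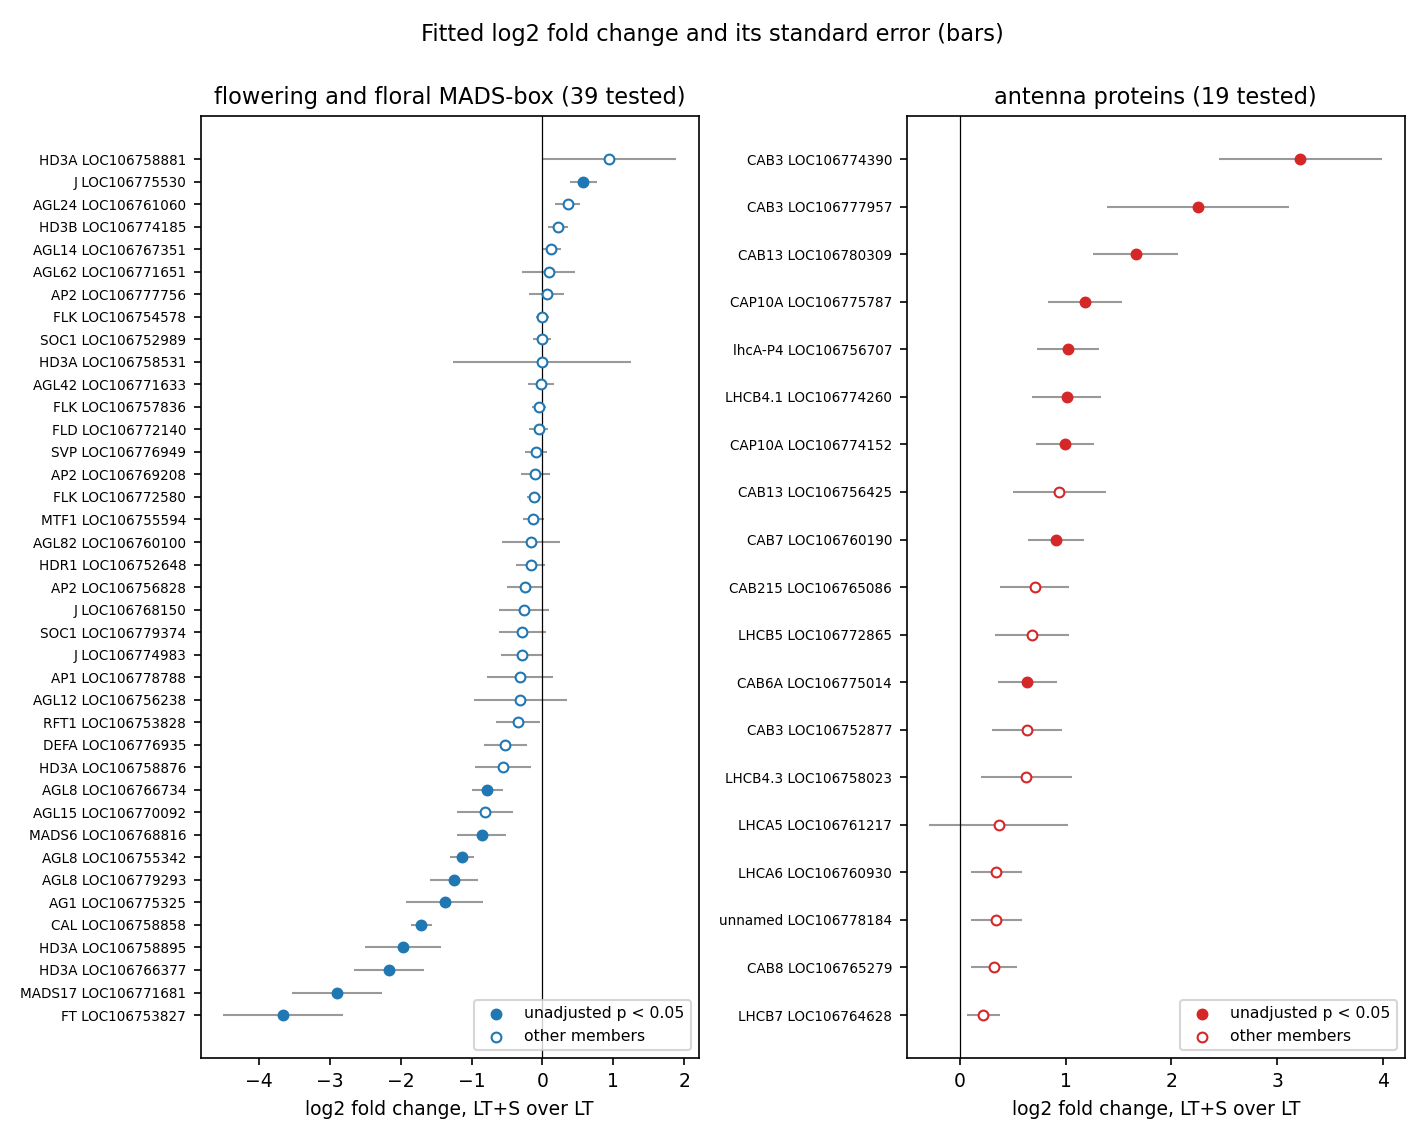
Fitted log2 fold change of LT+S over LT, with its standard error as a bar, for the 39 tested genes of flowering and floral MADS-box factors (left) and the 19 antenna proteins (right). Filled points had an unadjusted p below 0.05: FT at -3.66 and CAULIFLOWER at -1.71 on the left, and the 9 filled antenna proteins all to the right of 0.

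The enzymes that uniconazole blocks were examined next. One gene of ent-kaurene oxidase (KO, LOC106762922, chromosome 6 from 10459988 to 10462784) was tested, at 21.3, 16.8 and 12 CPM in LT and 19.1, 19.3 and 20.8 CPM in LT+S. The groups overlapped with a log2FC of 0.24 and a standard error of 0.20 (edgeR adjusted p = 0.868), so that a difference of this size was not detectable at this spread. Of 12 tested genes of gibberellin synthesis, 0 in either direction were at the 2-fold threshold (median 0.30), and the median ran from -0.27 to 0.36 over other models and filters and from 0.08 to 0.51 with a library left out. With a library left out 2 were lower without LT 2 and 1 without LT 3 or LT+S 3. Ent-kaurenoic acid oxidase 1 (LOC106774485), the enzyme that follows KO, was 5.08, 2.73 and 4.32 CPM in LT and 2.09, 2.11 and 2.85 CPM in LT+S (log2FC -0.78, edgeR adjusted p = 0.547). Late in the pathway, gibberellin 20 oxidase 2 (LOC106771067) was 2.61, 2.64 and 1.18 CPM in LT and 1.03, 0.548 and 1.63 CPM in LT+S, and gibberellin 3-beta-dioxygenase 1 (LOC106760989), which makes the active hormone, was 2.44, 1.09 and 2.04 and 1.28, 0.632 and 1.13 CPM. Both pairs of groups overlapped.

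Gibberellin breakdown was split between its genes. Of 11 tested gibberellin 2-beta-dioxygenases, which inactivate the hormone, 1 was higher and 2 were lower at the 2-fold threshold, or 2 and 2 without LT 2 or LT 3, and 1 and 1 without LT+S 1 or LT+S 3. GA2OX6 (LOC106764208) was 2.77, 1.55 and 2.24 CPM in LT and 6.2, 4.34 and 5.73 CPM in LT+S (log2FC 1.31, edgeR adjusted p = 0.451). The lower genes are both annotated as GA2OX8. The most abundant of the family (LOC106774556) was 272, 119 and 129.8 CPM in LT, with LT 1 the highest, and 74.5, 99.8 and 78.5 CPM in LT+S (log2FC -1.04, edgeR adjusted p = 0.451), and LOC106778530 was 1.77, 1.32 and 1.06 CPM in LT and 0.385, 0.548 and 0.753 CPM in LT+S (log2FC -1.29, edgeR adjusted p = 0.42). Short of that threshold, GA2OX1 (LOC106761125) was 3.7, 4.78 and 4.2 CPM in LT and 2.31, 2.74 and 2.26 CPM in LT+S (log2FC -0.79). In all 4 genes the groups did not overlap, as in 14.1% of all genes. Those at the 2-fold threshold were selected on the same libraries. Of 10 tested genes of gibberellin signalling 0 had an unadjusted p below 0.05: the receptor GID1C (LOC106772723) was 60.3, 66.9 and 58.8 CPM in LT and 70.4, 75.6 and 76.1 CPM in LT+S, and GAI1 (LOC106757726), a DELLA protein that holds growth back until gibberellin removes it, was 221, 253 and 159 and 152, 171 and 182 CPM. GAST1 (LOC106752543), named for a gibberellin-stimulated transcript of tomato, is not one of these 10 and was lower at the 2-fold threshold. It was 10.9, 7.2 and 2.24 CPM in LT and 0.256, 0.548 and 1.76 CPM in LT+S, with a wide spread among the pots of LT (log2FC -2.98, edgeR adjusted p = 0.629).

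The genes of the other target were higher in part. Of 7 tested abscisic acid 8'-hydroxylases, 6 had a positive log2 fold change (median 0.54). At the 2-fold threshold 3 were higher and 0 lower, beside 1.47% and 0.995% of all genes. The count was 2 without LT 1 and 4 without LT 3, where the median was 1.06 and 5 of 7 were positive. The 3 genes are all annotated as CYP707A2 and may share reads. The most abundant (LOC106753610) was 30.2, 71.5 and 46.9 CPM in LT and 109, 121 and 106 CPM in LT+S, a log2FC of 1.18 (edgeR adjusted p = 0.289), with 247, 216 and 189 CPM in CK. LOC106767139, on chromosome 7 from 4637437 to 4640094, was 1.3, 2.32 and 2.53 CPM in LT and 8.59, 5.39 and 5.73 CPM in LT+S (log2FC 1.68, edgeR adjusted p = 0.127), and in CK it was 1.1, 1.25 and 1.24 CPM, below both cold groups. The last (LOC106755472) was 0.084, 0.319 and 0.0815 CPM in LT and 1.28, 0.801 and 0.837 CPM in LT+S, or 11 reads against 69. Another gene of that name (LOC106777777) overlapped, at 7.48, 8.61 and 24.6 CPM in LT and 21.6, 15.4 and 13.3 CPM in LT+S. CYP707A4 (LOC106765605) was 104, 124 and 57 and 138, 157 and 122 CPM, CYP707A3 (LOC106761657) 4.58, 7.61 and 4.56 and 4.57, 2.7 and 3.85 CPM, and CYP707A1 (LOC106764057) 19.6, 17 and 9.62 and 16, 27.7 and 9.25 CPM, all with overlapping groups.

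Synthesis and signalling of abscisic acid showed less. Of 10 tested genes of its synthesis, 0 in either direction had an unadjusted p below 0.05 (median log2 fold change 0.00). Of 29 genes of its signalling 0 were higher and 2 lower at that p. This is 6.9% of the signalling list, close to the 7.07% of all genes. The 2 lower genes are both annotated as the protein kinase SRK2A, of the SnRK2 family, only some members of which carry the abscisic acid signal. LOC106752771 was 91.6, 92.2 and 103 CPM in LT and 78.3, 64 and 66.7 CPM in LT+S (log2FC -0.46, edgeR adjusted p = 0.289), and in CK it was 53.2, 53.6 and 53.5 CPM. LOC106776088 was 34.1, 28.5 and 25.5 CPM in LT and 18.3, 22.3 and 24.7 CPM in LT+S. Each LT+S library was below each LT library in both genes, as in 6.91% of all genes.

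**Figure D3:**
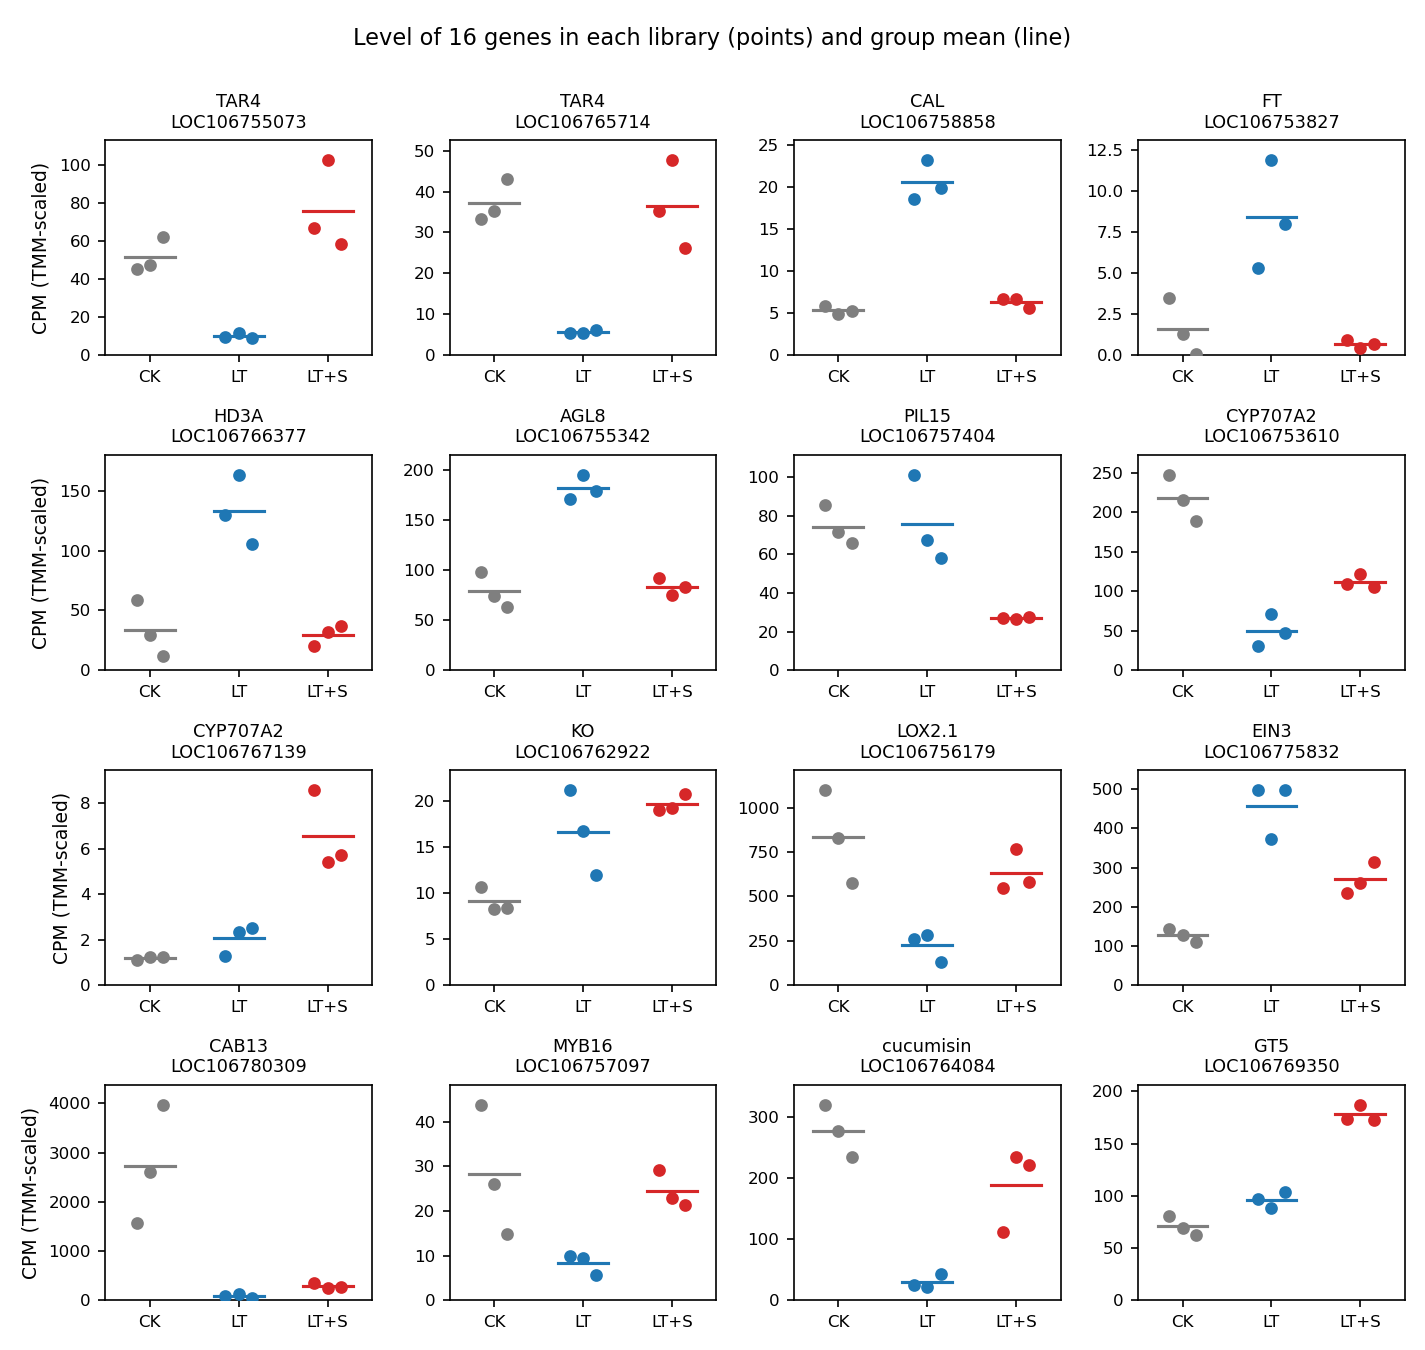
CPM scaled by TMM of 16 genes in each library (points, vertical axes from 0) and the mean of each group (lines), for CK, LT and LT+S. The TAR4 genes, CAULIFLOWER, the florigens FT and HD3A, AGL8 and the CYP707A2 genes show no overlap between LT and LT+S, while KO does overlap.

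Brassinosteroids, steroid hormones of growth whose synthesis also runs through cytochromes P450, had 2 genes higher and 1 lower at the 2-fold threshold among 28 tested. Together these are 10.7% of the list, beside 2.46% of all genes. CYP90B1 (LOC106778030), which starts the conversion of sterol to brassinosteroid, was 1.77, 4.69 and 3.46 CPM in LT, 7.22, 8.94 and 7.53 CPM in LT+S and 9.58, 11.1 and 12.5 CPM in CK (log2FC 1.26, edgeR adjusted p = 0.319). CYP90A1 (LOC106763863), a later enzyme, was 16.1, 9.47 and 10.3 CPM in LT, 3.16, 4.17 and 8.66 CPM in LT+S and 1.97, 3.15 and 3.01 CPM in CK (log2FC -1.16, edgeR adjusted p = 0.513). CYP734A1 (LOC106767283), which inactivates the hormone, was 1.18, 0.956 and 0.57 CPM in LT and 1.33, 2.19 and 4.98 CPM in LT+S. Members of the pathway lay on both sides, and in none of the 3 genes did LT and LT+S overlap. Over all genes 14.1% had no overlap, and genes at the 2-fold threshold were selected on the same libraries.

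Genes of cytokinin, the hormone of cell division and of green leaves, lay on both sides. Among 25 tested genes of cytokinin metabolism 2 were higher and 1 lower at the 2-fold threshold, together 12% beside 2.46% of all genes. Cytokinin dehydrogenase 1 (CKX1, LOC106752528), which degrades the hormone, was 0.798, 1.28 and 0.733 CPM in LT and 0.0855, 0.0421 and 0.126 CPM in LT+S, where 6 reads were counted over the 3 libraries against 65 in LT (log2FC -3.38, edgeR adjusted p = 0.0775). CKX3 (LOC106767266) was the reverse, at 1.39, 2.14 and 1.26 CPM in LT and 3.89, 5.48 and 3.6 CPM in LT+S (log2FC 1.44, edgeR adjusted p = 0.384). IPT3 (LOC106771461), the isopentenyltransferase that makes cytokinin, was 2.02, 6.15 and 4.24 CPM in LT, 13.6, 9.48 and 8.28 CPM in LT+S and 9.0, 9.46 and 10.7 CPM in CK. Of 41 tested genes of cytokinin signalling 1 was higher and 1 lower at the 2-fold threshold (4.88%), with 7 higher without LT 2 and 0 higher without LT+S 2. Both are phosphotransfer proteins of the signal. AHP4 (LOC106773913) was 1.13, 0.501 and 1.14 CPM in LT and 2.18, 7.17 and 1.38 CPM in LT+S, with LT+S 2 the highest (log2FC 1.94, edgeR adjusted p = 0.49). AHP1 (LOC106771462) was 4.33, 8.79 and 1.43 CPM in LT and 0.727, 0.717 and 0.502 CPM in LT+S, with LT 2 the highest (log2FC -2.89, edgeR adjusted p = 0.289).

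Of 18 tested genes of ethylene synthesis and reception, 16 had a negative log2 fold change (median -0.28), with 0 at the 2-fold threshold and 5 lower at an unadjusted p below 0.05, beside 3.34% of all genes. Without LT 3 the median was -0.15 and 3 genes were higher and 0 lower at the 2-fold threshold, whereas 2 were lower without LT 2 or LT+S 3 and 1 without LT 1 (median -0.49). EIN3 (LOC106775832), the transcription factor at the end of the ethylene signal, was 499, 374 and 499 CPM in LT, 234, 259.8 and 316 CPM in LT+S and 145, 127 and 111 CPM in CK (log2FC -0.76, edgeR adjusted p = 0.289). Another EIN3 gene (LOC106775710) was 29.5, 20.4 and 22 CPM in LT and 9.87, 13.6 and 20.5 CPM in LT+S. The ACC oxidase homolog 5 (LOC106762735), of the family that forms ethylene itself, was 12.9, 6.83 and 15.2 CPM in LT and 4.57, 4.21 and 9.0 CPM in LT+S. Among 62 ethylene-responsive factors 1 was higher and 5 were lower at the 2-fold threshold, or 4 and 3 without LT 3, 2 and 8 without LT 2, and 0 and 5 without LT 1 or LT+S 1, while 3 were lower without LT+S 2. ERF1A (LOC106767092) was 43.8, 24.2 and 72.9 CPM in LT and 13.9, 19.1 and 16.6 CPM in LT+S (log2FC -1.51, edgeR adjusted p = 0.289), with LT 3 the highest of the LT libraries, and ERF110 (LOC106768471) was 1.3, 1.91 and 8.43 CPM in LT, where LT 3 again led, and 0.983, 0.674 and 0.962 CPM in LT+S. The factor that was higher is WRI1 (LOC106754673), a regulator of fatty acid synthesis in seeds of Arabidopsis. It was 2.73, 4.37 and 2.44 CPM in LT and 12.2, 11 and 5.44 CPM in LT+S (log2FC 1.58, edgeR adjusted p = 0.384), and 0 reads were counted in CK.

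Jasmonate, the hormone of wounding and defence, is made from linolenic acid by 13-lipoxygenases. Of 45 tested genes of its synthesis and response, 4 were higher and 0 lower at the 2-fold threshold, or 8.89% beside 2.46% of all genes. The 4 include the repressor TIFY3B beside the genes named here. Chloroplast lipoxygenase 2-1 is annotated at LOC106756179, with 261, 283 and 133 CPM in LT, 550.1, 768 and 581 CPM in LT+S and 1102, 827 and 578 CPM in CK, and at LOC106776123, with 48.3, 17.7 and 43.2 CPM in LT, 101, 136 and 79.3 CPM in LT+S and 129.7, 158 and 189 CPM in CK. Their log2 fold changes were 1.49 and 1.53 (edgeR adjusted p = 0.285 and 0.295). The 12-oxophytodienoate reductase OPR11 (LOC106777103), of a family with a later step, was 23.6, 53.1 and 45.3 CPM in LT and 129, 72.8 and 88.8 CPM in LT+S (log2FC 1.25). Outside that list LOX1.4 (LOC106773082), a 9-lipoxygenase of a branch that does not lead to jasmonate, was at 10.8, 5.33 and 3.75 CPM in LT and 144, 49.4 and 32.7 CPM in LT+S (log2FC 3.51, edgeR adjusted p = 0.121). In CK it was 3.25, 5.3 and 5.5 CPM, so that LT+S exceeded both other groups.

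Strigolactone, a hormone that restrains branching, had 1 gene lower at the 2-fold threshold of 13 tested, and 1 higher and 0 lower without LT 2. SMXL8 (LOC106764383), a repressor that the strigolactone signal removes, was 11.7, 20.9 and 13.7 CPM in LT, 7.52, 5.35 and 7.74 CPM in LT+S and 10.2, 10.1 and 8.9 CPM in CK (log2FC -1.17, edgeR adjusted p = 0.22). The receptor D14 (LOC106773740) was 2.4, 3.23 and 1.26 CPM in LT and 4.53, 4.8 and 4.14 CPM in LT+S, and 165, 199.7 and 249.8 CPM in CK.

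Photosynthetic genes mostly lay higher in LT+S. All 19 antenna proteins, which carry chlorophyll in the light-harvesting complexes, passed the count filter, and each had a positive log2 fold change (median 0.71). Of them 6 were higher and 0 lower at the 2-fold threshold, beside 1.47% and 0.995% of all genes. At an unadjusted p below 0.05, 9 were higher, beside 3.73% of all genes, and 0 of the 19 passed at an adjusted p below 0.05 in edgeR. Their sum was 8760, 12510 and 5678 CPM in LT, against 14261, 13600 and 15077 CPM in LT+S, so that every LT+S library was above every LT library. The sum was 49054 to 77605 CPM in CK, far above both cold groups. LT 3 was the lowest and LT 2 the highest of LT, and the count at the 2-fold threshold was 2 without LT 3 (median 0.43), 12 without LT 2 (median 1.20) and 3 without LT+S 1 (median 0.78). Leaving out LT 3 or LT+S 3 left 18 of 19 positive.

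Members of the antenna differed in the size of the difference. The study examined chlorophyll a-b binding protein 13 for binding of uniconazole. Its text gives the gene as LOC106780309, whereas its captions on the binding name LOC106777957, which is annotated here as CAB3. LOC106780309, annotated as chlorophyll a-b binding protein 13, was 83, 133 and 54 CPM in LT and 341, 244 and 268 CPM in LT+S, a log2FC of 1.66 with a standard error of 0.40 (edgeR adjusted p = 0.301). CK was at 1575, 2609.9 and 3975 CPM. Another gene of that name (LOC106756425) was 49.5, 134 and 34.1 CPM in LT and 153, 139.7 and 126 CPM in LT+S (log2FC 0.94). The 2 largest log2 fold changes, 3.22 and 2.25, were in genes annotated as CAB3. LOC106774390, on chromosome 1 from 24461287 to 24462210, was 2.94, 3.05 and 1.02 CPM in LT and 23.5, 23.7 and 18.1 CPM in LT+S, and LOC106777957 was 11.2, 13.5 and 5.62 CPM in LT and 49.9, 61.9 and 32.5 CPM in LT+S. Another CAB3 gene (LOC106752877), the most read of the antenna in these leaves, was 3705, 5406 and 2340.5 CPM in LT and 5789, 5658 and 6306 CPM in LT+S (log2FC 0.63). Genes of 1 name may share reads. Among the smaller values CAB8 of photosystem I (LOC106765279) was 1033, 1332 and 811 CPM in LT and 1249, 1325 and 1397 CPM in LT+S (log2FC 0.32), with overlap.

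In the photosystems themselves the median was smaller. Of 55 tested genes of the photosystems and electron transport, 48 had a positive log2 fold change (median 0.34), and 3 were higher and 0 lower at the 2-fold threshold. Ferredoxin-1 (LOC106775679), which passes electrons on from photosystem I, was 5.17, 7.88 and 3.87 CPM in LT and 16.2, 13.5 and 11.7 CPM in LT+S (log2FC 1.30, edgeR adjusted p = 0.445). The oxygen-evolving enhancer protein 2 (LOC106764695), PSBP of photosystem II, was 161, 187 and 86.4 CPM in LT and 262, 245 and 278 CPM in LT+S (log2FC 0.85). The count was 1 without LT 3 (median 0.15), 9 without LT 2 (median 0.63) and 1 without LT+S 3 (median 0.24). Of 28 genes of chlorophyll synthesis 1 was higher and 0 lower at the 2-fold threshold (median 0.26). It was HEMA1 (LOC106765024), whose glutamyl-tRNA reductase commits the pathway, with 41.1, 98.2 and 37.2 CPM in LT, 152, 135 and 149.7 CPM in LT+S and 339, 472 and 600.3 CPM in CK (log2FC 1.31, edgeR adjusted p = 0.40). Among 32 tested Calvin cycle and photorespiration genes 24 were positive (median 0.15), with 0 at an unadjusted p below 0.05, though 3 were higher at the 2-fold threshold without LT 2 (median 0.37). CHUP1, which anchors and moves chloroplasts, is annotated at 10 tested genes, of which 1 was higher at the 2-fold threshold. That gene (LOC106753601) was 2.23, 1.87 and 1.26 CPM in LT and 6.03, 3.08 and 4.44 CPM in LT+S (log2FC 1.34, edgeR adjusted p = 0.301), and the log2 fold changes of the others ran from -0.27 to 0.35.

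**Figure D4:**
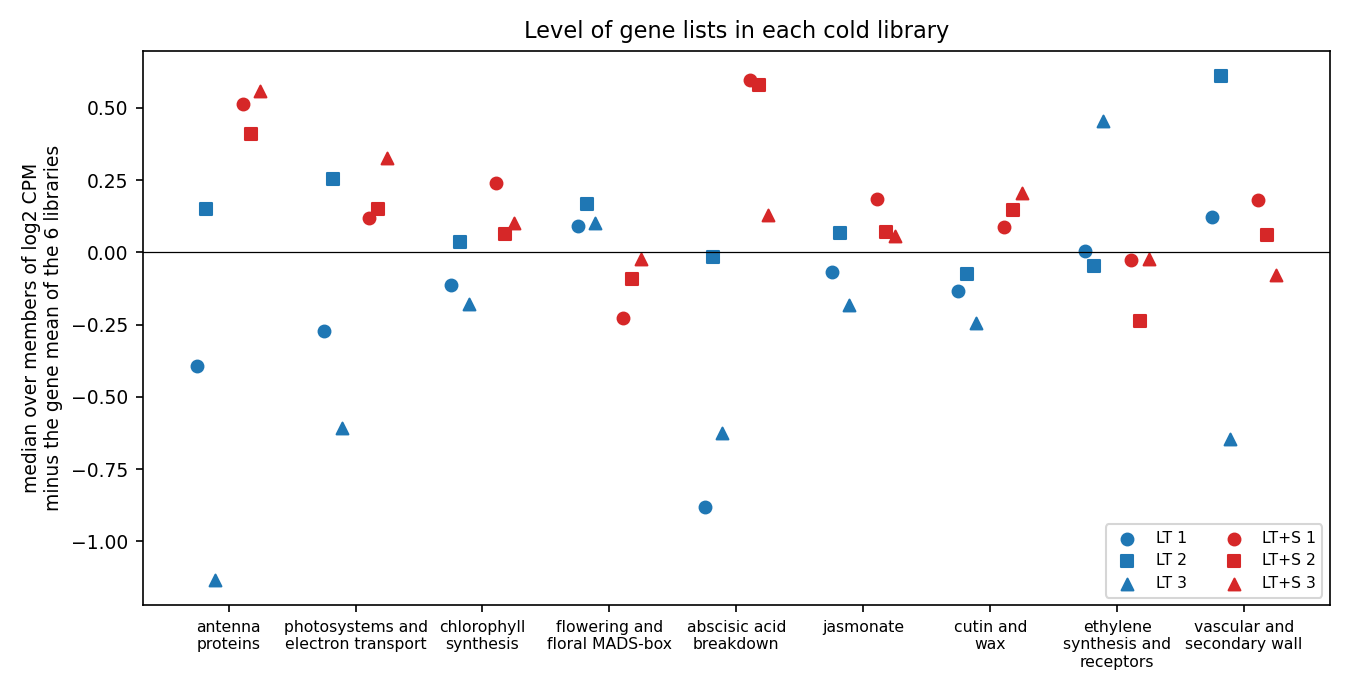
Median over the members of 9 gene lists of the log2 CPM minus the mean of each gene over the 6 cold libraries (vertical axis), for each LT library (blue) and LT+S library (red). LT 3 is lowest for the antenna (-1.13) and for vascular genes (-0.65), while flowering genes lie above 0 in the 3 LT libraries and below 0 in the 3 LT+S libraries.

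Flavonoid synthesis held genes on both sides. Of 69 tested genes, 6 were higher and 7 lower at the 2-fold threshold (median -0.01). The counts were 12 and 10 without LT 2, 10 and 4 without LT+S 2, and 3 and 6 without LT+S 3, and the median was 0.31 without LT 3. Chalcone synthase (CHS), the entry enzyme, is annotated at 8 tested genes, of which 7 had a negative log2 fold change. Some of these signs rest on LT 3. LOC106754681 was 2.65, 3.19 and 80.8 CPM in LT and 11, 7.5 and 5.31 CPM in LT+S, so that LT 3 alone lay above LT+S. LOC106777513, at 7.27, 8.29 and 34.4 CPM in LT, and LOC106777514, at 8.7, 13.3 and 44.1 CPM, also had LT 3 far the highest, and both overlapped LT+S. LOC106778834 was 3.74, 0.501 and 13.4 CPM in LT and 0.556, 0.337 and 0.126 CPM in LT+S (log2FC -4.10, edgeR adjusted p = 0.36). LOC106766157 was 1.55, 0.182 and 5.09 CPM in LT and 0.0855, 0.0843 and 0.0837 CPM in LT+S, or 166 reads against 6 (log2FC -4.66). LT 2 was far below LT 1 and LT 3 in both, and the genes may share reads. The abundant copy LOC106753918 was the exception, with 106, 256 and 139 CPM in LT and 328, 139 and 569.6 CPM in LT+S (log2FC 1.05, edgeR adjusted p = 0.764). The next enzyme, chalcone isomerase (LOC106771799), was 32, 41 and 30.8 CPM in LT and 50.7, 58.8 and 101 CPM in LT+S (log2FC 1.02, edgeR adjusted p = 0.301). Flavonol synthase (LOC106763888) was 19.5, 24 and 15.7 CPM in LT and 38, 35.9 and 41 CPM in LT+S. The anthocyanidin glucosyltransferase GT5 (LOC106769350) had little spread, at 96.5, 88.7 and 104 CPM in LT and 174, 187 and 173 CPM in LT+S (log2FC 0.88, edgeR adjusted p = 0.0691). In the isoflavonoid branch of legumes 2-hydroxyisoflavanone synthase (LOC106780381) was 34.1, 30.3 and 109 CPM in LT, with LT 3 the highest, and 24.8, 17 and 23.1 CPM in LT+S, whereas CYP81E8 (LOC106774281), of a family that hydroxylates isoflavones, was 26.6, 14.7 and 3.38 CPM in LT and 227, 140.1 and 147 CPM in LT+S (log2FC 3.52, edgeR adjusted p = 0.394).

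Of 113 tested genes matched to cutin and wax, 78 had a positive log2 fold change, and 8 were higher and 0 lower at the 2-fold threshold. The count was 13 without LT 2 and 5 without LT+S 3. All 8 are annotated as GDSL esterase/lipases, a large family of which cutin synthases are only some and which makes up 61 of the 113. In the pathway of cutin, suberine and wax that the file itself annotates, 0 of 24 tested genes in either direction were at the 2-fold threshold (median 0.19). Of the 8, the tightest was LOC106775378, at 3.07, 2.96 and 2.69 CPM in LT, 7.44, 7.71 and 7.62 CPM in LT+S and 10.8, 13.4 and 17.5 CPM in CK (log2FC 1.38, edgeR adjusted p = 0.0691), and LOC106775564 was 3.45, 3.51 and 3.22 CPM in LT and 6.97, 6.58 and 9.37 CPM in LT+S (log2FC 1.17, edgeR adjusted p = 0.0814). MYB16 (LOC106757097), whose Arabidopsis relative switches on cuticle genes, was 9.83, 9.56 and 5.75 CPM in LT, 29.3, 22.9 and 21.3 CPM in LT+S and 43.9, 26.1 and 14.8 CPM in CK (log2FC 1.55, edgeR adjusted p = 0.301). Among 16 genes of terpenoid synthesis 2 were higher at the 2-fold threshold (median 0.53), or 4 without LT 2 and 1 without LT 3 (median 0.19). One was a germacrene D synthase (LOC106753988), which forms a volatile sesquiterpene, at 16.3, 22 and 14.6 CPM in LT, 49.3, 38.9 and 53.5 CPM in LT+S and 38.1, 39.8 and 45.8 CPM in CK (log2FC 1.42, edgeR adjusted p = 0.0691).

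Defence proteins gave the most genes at the 2-fold threshold of any list, 14 higher and 9 lower of 64 tested (35.9%, beside 2.46% of all genes). Families lay on different sides. These families were picked after their values were seen. Of 18 tested trypsin and chymotrypsin inhibitors, Kunitz inhibitors and miraculins, which block the digestive proteases of insects, 16 had a positive log2 fold change and 11 were higher at the 2-fold threshold. Of 9 tested genes of pathogenesis-related protein 2, all had a negative log2 fold change and 7 were lower at that threshold. Every LT+S library lay below every LT library in 4 of the 9, beside 6.91% of all genes. Most of the 7 had very few reads: LOC106768207, LOC106768463, LOC106773613 and LOC106773664 were at most 0.756 CPM in any cold library. A further one, LOC106773674, was at most 1.59 CPM. The miraculin LOC106767274 was 1.55, 3.14 and 1.14 CPM in LT and 12.4, 6.49 and 13 CPM in LT+S (log2FC 2.45, edgeR adjusted p = 0.121). The chymotrypsin inhibitor 3 gene LOC106755425 was 406, 419.6 and 204 CPM in LT and 1318, 742 and 491 CPM in LT+S, with 5.69, 9.82 and 16.4 CPM in CK (log2FC 1.31, edgeR adjusted p = 0.565). LT+S 1 was the highest for that gene. Of the 11 inhibitors at the threshold, 6 had every LT+S library above every LT library. That is a smaller share than over all genes higher at that threshold, of which 252 of 283 did.

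The genes of pathogenesis-related protein 2 lie in 2 groups, 5 within 22.7 kb of chromosome 7 (48269221 to 48291927) and 4 within 63.6 kb of chromosome 9 (3580176 to 3643755). Such neighbours may share reads and are not independent. LOC106773636 was 3.11, 0.501 and 2.12 CPM in LT, 0.171, 0.379 and 0.126 CPM in LT+S and 15.2, 13.1 and 13.9 CPM in CK (log2FC -3.06, edgeR adjusted p = 0.258). In LOC106768462 LT 2 was as low as LT+S, with 7.31, 1.73 and 15.9 CPM in LT and 2.39, 2.28 and 0.628 CPM in LT+S. The most read of them, LOC106766753, was 83.5, 64.9 and 144 CPM in LT and 101, 63.1 and 58.2 CPM in LT+S (log2FC -0.40).

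**Figure D5:**
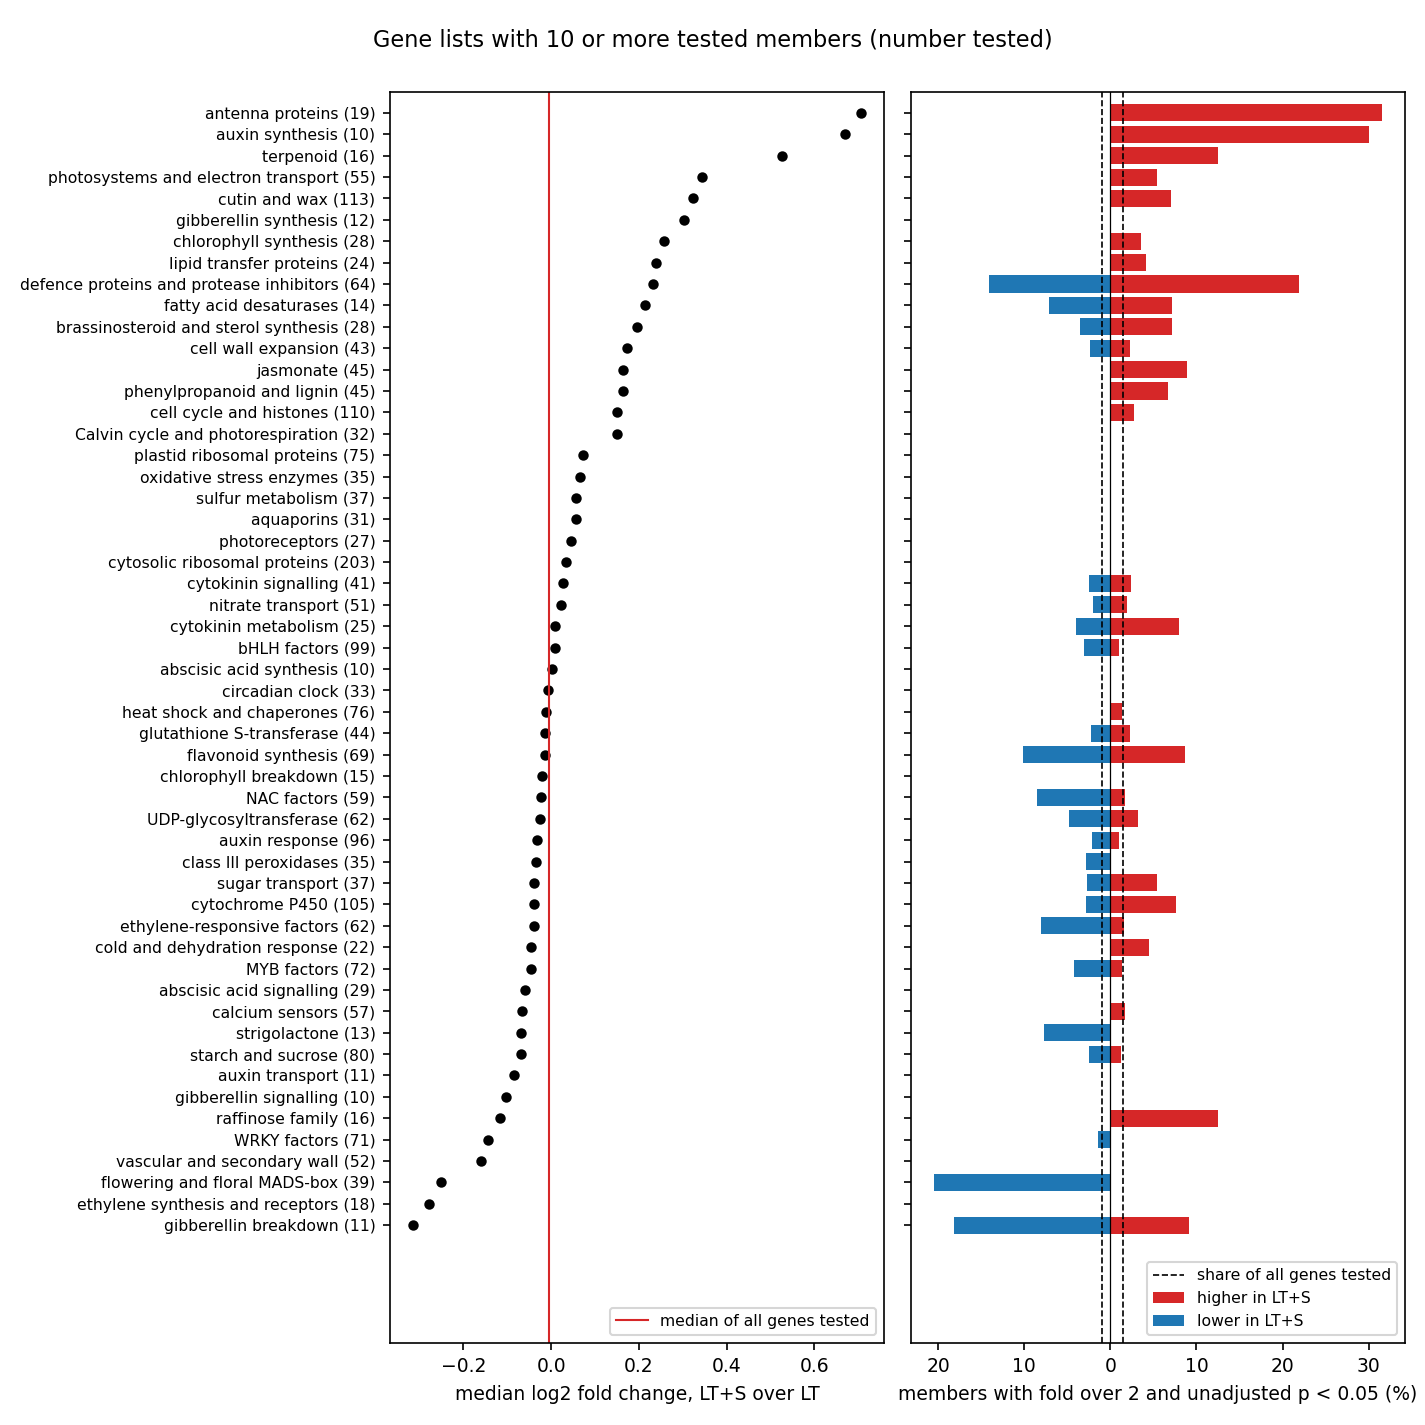
Median log2 fold change of LT+S over LT (left) and the percentage of members higher (red) or lower (blue) at a fold over 2 with an unadjusted p below 0.05 (right), for gene lists with 10 or more tested members, whose number is in parentheses. The antenna has the highest median (0.71), flowering genes have bars to the lower side only, and dashed lines give the shares over all genes (1.47% higher and 0.995% lower).

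Of 80 tested genes of starch and sucrose, 1 was higher and 2 lower at the 2-fold threshold, beside 2.46% of all genes in both directions, with 0 and 0 without LT+S 1, 0 and 2 without LT 3, LT+S 2, LT+S 3 or CK 2, and 3 and 2 without CK 1. By an unadjusted p below 0.05 alone 2 were higher and 9 lower, beside 3.73% and 3.34% of all genes. Soluble starch synthase 1 (LOC106774409) was 60.3, 49.5 and 76.6 CPM in LT and 38.6, 38.6 and 32.8 CPM in LT+S (log2FC -0.76, edgeR adjusted p = 0.301). Trehalose phosphate is a signal of sugar status. The synthase TPS10 (LOC106779910) was 40.3, 33.6 and 29.990 CPM in LT and 19.4, 20.3 and 25.4 CPM in LT+S, and the phosphatase TPPJ (LOC106766786) was 69.3, 77.6 and 55.3 and 41.3, 43.9 and 28.2 CPM. The sugar transporter SWEET3b is annotated at 2 genes that lay on different sides. LOC106764252 was 9.33, 12.2 and 10.5 CPM in LT and 2.18, 0.801 and 1.42 CPM in LT+S (log2FC -2.86, edgeR adjusted p = 0.106), and LOC106778887 was 3.07, 3.55 and 2.32 CPM in LT and 17.4, 11.8 and 6.57 CPM in LT+S (log2FC 2.0, edgeR adjusted p = 0.289). Of 22 genes of the cold and dehydration response 1 was higher at the 2-fold threshold, DREB3 (LOC106760881), at 1.3, 3.55 and 0.693 CPM in LT and 6.63, 5.69 and 5.15 CPM in LT+S. Of 76 heat shock proteins and chaperones 1 was higher and 0 lower, or 3 higher without LT 2 and 2 lower without LT 1 or LT+S 1, and of 35 oxidative stress enzymes 0 were at the threshold. Fatty acid desaturases form the unsaturated lipids that keep membranes fluid, and of 14 tested 1 was higher and 1 lower at the 2-fold threshold, with 3 higher without LT 2 and 0 lower without LT 1 or LT+S 3. FAD2-2 (LOC106757695) was 94.2, 176 and 68.9 CPM in LT and 245, 258 and 312 CPM in LT+S (log2FC 1.26, edgeR adjusted p = 0.426). FAD2 (LOC106771256) was 2.77, 0.911 and 1.71 CPM in LT and 0.812, 0.717 and 0.586 CPM in LT+S (log2FC -1.35, edgeR adjusted p = 0.541).

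Regulators of stress and ageing had single members apart. NAC factors, plant transcription factors that include drivers of leaf ageing, had 1 gene higher and 5 lower at the 2-fold threshold of 59 tested, and 2 lower without LT 1 or LT+S 1. NAC056 (LOC106775730) was 49.3, 58.7 and 35.5 CPM in LT and 18.8, 17.7 and 25.1 CPM in LT+S (log2FC -1.22, edgeR adjusted p = 0.384), and NAC047 (LOC106753963) was 436, 310.1 and 413 CPM in LT, 179, 171 and 236 CPM in LT+S and 76.8, 54.3 and 33.2 CPM in CK. MYBS3 (LOC106767808), named for a rice factor of sugar and cold responses, was 18.5, 8.7 and 8.84 CPM in LT and 1.97, 4.17 and 2.93 CPM in LT+S (log2FC -1.99, edgeR adjusted p = 0.138). WRKY factors had 0 higher and 1 lower of 71 (median -0.14), but 9 higher and 0 lower without LT 3 (median 0.10), 1 and 5 without LT 2, and 0 and 5 without LT 1. Cytosolic ribosomal proteins, a set of housekeeping genes, had 0 of 203 at the 2-fold threshold and a median of 0.03.

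The remaining large differences were spread over single genes. Cucumisin (LOC106764084), a subtilisin-like protease, was 25, 21.5 and 43.1 CPM in LT, 111, 235 and 222 CPM in LT+S and 321, 278 and 235 CPM in CK (log2FC 2.66, edgeR adjusted p = 0.0691). The transporter DTX40 (LOC106762570), of a family that exports small molecules, was 10.1, 12.6 and 7.74 CPM in LT, 85.7, 53.9 and 37.9 CPM in LT+S and 210.1, 166 and 96.1 CPM in CK (log2FC 2.54, edgeR adjusted p = 0.0775). Patatin-like protein 3 (LOC106772963) was 73, 38.3 and 11.3 CPM in LT and 435, 140.0 and 297 CPM in LT+S, and the F-box protein PP2-B15 (LOC106775369) was 1.68, 7.61 and 3.26 and 38, 57.4 and 10.042 CPM. On the lower side CASP-like protein 1D1 (LOC106767328) was 34.3, 20.1 and 43.8 CPM in LT, 8.29, 5.82 and 4.64 CPM in LT+S and 0.929, 0.714 and 0.786 CPM in CK (log2FC -2.39, edgeR adjusted p = 0.0691). Its LT+S libraries therefore lay between CK and LT. The transporter PDR3 (LOC106769182) was 3.91, 4.14 and 13.2 CPM in LT, with LT 3 the highest, and 1.5, 0.506 and 0.879 CPM in LT+S (log2FC -2.88). The reticuline oxidase BBE1 (LOC106771312) was 16.2, 11.4 and 13.3 CPM in LT and 3.8, 2.74 and 1.51 CPM in LT+S (log2FC -2.34, edgeR adjusted p = 0.117). A gene with no description (LOC106771773, chromosome 8 from 44932951 to 44934340) had the largest fold among those at the 2-fold threshold, with 19.5, 9.75 and 3.59 CPM in LT, 0.0855, 0.126 and 0.209 CPM in LT+S and 43.9, 32.1 and 13.6 CPM in CK (log2FC -6.22, edgeR adjusted p = 0.0691).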

How the data were processed

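Leaf RNA was sequenced in 9 libraries. The authors trimmed reads with Trimmomatic, aligned them with hisat2 to Vradiata_ver6 and counted them with htseq-count. The deposited values are raw counts per gene, whole numbers with no normalization. The submitters' processing notes also name CASAVA 1.8 and Cufflinks. Neither strandedness nor the handling of multiply mapped reads is given in the sources used here. Here edgeR 4.0.16 was run under R 4.3.3 (filterByExpr, TMM, glmQLFit and glmQLFTest over the 9 libraries, Benjamini-Hochberg). Levels are CPM scaled by TMM. The procedure was run on simulated counts drawn gene by gene from the fitted spread. These hold no shifts shared by many genes of a pot, so the run cannot show how the test behaves under such shifts. Alternatives were DESeq2 1.42.0, limma-voom (limma 3.58.1), 6 libraries, other scaling and filters, a replicate block and each library left out. Gene lists were matched to the descriptions in the file. Genes were named by a rule: those called, the 10 higher and 10 lower with the largest fold among genes with at least 5 CPM and no overlap, up to 3 per list by smallest p, the targets of uniconazole and genes the study names. Other members of the lists and families described, LOC106771336 and LOC106771773 were named after their values were seen. Lists and genes were chosen with earlier results of these data known. Positions are those of RefSeq for 26961 of 26966 genes. Sequences were not used here. Figures were drawn with matplotlib 3.10.9.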

Additional observations from a re-analysis of the deposited data

How the results depend on the processing

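The comparison of LT+S with LT was recomputed under 18 alternatives. At an adjusted p below 0.05 the main count of 2 genes higher and 1 lower was 123 and 109 with DESeq2 on 9 libraries, 183 and 161 with DESeq2 on 6 libraries, 184 and 159 with DESeq2 on 6 libraries and no filter, and 0 and 0 with edgeR on 6 libraries (872 and 750 at an unadjusted p below 0.05). DESeq2 size factors, no filter, a mean of at least 1 CPM and limma-voom each gave 2 and 1. Leaving out 1 library gave 0 to 4 higher and 0 to 3 lower: 0 and 0 without LT 1, and 0 lower without LT+S 2 or LT+S 3. At a fold over 2 with an unadjusted p below 0.05 the 283 higher and 192 lower genes were 427 and 265 with DESeq2 on 6 libraries and no filter, and 244 to 482 and 151 to 291 with a library left out, the highest of both without LT 2. Without CK 1 the higher count was 407. With the replicate block 4 genes were higher and 2 lower. The deviations of same-numbered libraries of LT and LT+S from their group means had correlations of -0.30, -0.09 and -0.28, and those of differently numbered libraries ran from -0.17 to 0.36. Deviations within a group of 3 cancel out by construction, so these values cannot tell whether the numbers mark a shared block. The sign was followed for 132 of the genes named, and 3 of these turned sign with a library left out. CYP707A1 (LOC106764057) was 0.20 and ran from -0.29 to 0.50. SOC1 (LOC106752989) was -0.01 and ran from -0.10 to 0.076, and SVP (LOC106776949) was -0.09 and ran from -0.22 to 0.049. Genes not followed include several of pathogenesis-related protein 2 and the CHS genes LOC106754681, LOC106777513 and LOC106777514. In LOC106754681 the LT libraries other than LT 3 lay below every LT+S library, so its negative sign rests on LT 3. Groups of 3 are too small for a search for outlying libraries, and differences within their spread were not detectable.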
